A study of Mus musculus with 191 samples.

Results

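Cytochrome P450 genes were described across 5 mouse tissues. A member was any gene whose symbol is Cyp followed by a number, a letter and a number, with Cyp51, pseudogenes and antisense RNAs left out, and whose mean over the libraries of a tissue was at least 1 in the deposited normalized values. Of 21205 genes listed in the tables, 80 were members in at least 1 tissue. The count was 65 in liver, 38 in skin, 37 in gut, 30 in lung and 13 in bone marrow. The genes just inside and just outside that limit were Cyp2j6 at 1.84 and Cyp2u1 at 0.930 in bone marrow, Cyp7b1 at 1.12 and Cyp1a1 at 0.780 in gut, Cyp2c39 at 1.15 and Cyp2g1 at 0.851 in liver, Cyp2r1 at 1.18 and Cyp2b19 at 0.841 in lung, and Cyp21a1 at 1.30 and Cyp27b1 at 0.996 in skin.

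RNA was sequenced from tissues collected around the clock, at zeitgeber times (ZT) counted in hours from lights on. For bone marrow, gut, liver and lung, 18 libraries per tissue came from C57BL/6 mice given anti-Ly6G (1A8), an antibody against a neutrophil surface antigen, and 18 came from C57BL/6 mice given control IgG. Both were given at 3 µg per g of body weight on 2 consecutive days. Each treatment had 3 mice at each of ZT 1, 5, 9, 13, 17 and 21, and a share of the mice, not named in the labels, lived under light inverted by 12 h. The 3 gut libraries labelled IgG at ZT 21 have bm in their titles where the other IgG gut titles have co, and they were kept in the group of their treatment label. Ear skin had 16 libraries from Mrp8CRE iDTR mice, in which Cre driven by a myeloid promoter switches on a diphtheria toxin receptor, 15 from Mrp8CRE Bmal1-flox mice, in which the same Cre removes the clock gene Arntl, and 16 labelled as wild-type C57BL/6 controls. The iDTR mice and the controls received diphtheria toxin at 10 µg per kg for 2 days, the Bmal1-flox mice received none, and each genotype had 1 mouse per time, without ZT 16 in Bmal1-flox. No strain was labelled for the iDTR and Bmal1-flox mice, and in the Bmal1-flox comparison genotype and toxin cannot be told apart.

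Cytochrome P450 enzymes are haem proteins of the endoplasmic reticulum and mitochondria that insert an oxygen atom into their substrates, with electrons passed on from cytochrome P450 reductase (Por) or, in mitochondria, from ferredoxin (Fdx1). The low-numbered families act mostly on drugs, dietary compounds and pollutants, the CYP4 family on fatty acids and eicosanoids, and the higher-numbered families on sterols, bile acids, steroid hormones and retinoic acid. In liver, many are controlled by the nuclear receptors CAR, PXR and PPARα, by the dioxin receptor AhR, and by clock-driven factors of the PAR bZIP group (Dbp, Tef and Hlf).

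The 250 bases before the start site are shown for 5 members, because these had the widest daily waves in IgG livers (Cyp2b10 and Cyp2a5) or 3 of the 4 largest differences in skin (Cyp1a1, Cyp2j12 and Cyp2b23). They are RefSeq promoters of build GRCm38.p6, printed 5′ to 3′ on the gene's strand, and lie at chr7:25897408-25897657 on the plus strand, chr7:26835089-26835338 plus, chr7:26686431-26686680 minus, chr9:57697363-57697612 plus and chr4:96141153-96141402 minus. Capitals mark TTGCATAA in the Cyp2b10, Cyp2a5 and Cyp2b23 windows, and the AhR core letters GCGTG, or CACGC on the other strand, in Cyp2b10, Cyp1a1 and Cyp2j12.
Cyp2b10: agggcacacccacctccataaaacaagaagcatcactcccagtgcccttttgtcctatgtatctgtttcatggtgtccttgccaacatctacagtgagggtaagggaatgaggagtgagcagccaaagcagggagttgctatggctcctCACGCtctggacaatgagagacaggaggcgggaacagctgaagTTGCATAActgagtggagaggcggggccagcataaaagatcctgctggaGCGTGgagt
Cyp2a5: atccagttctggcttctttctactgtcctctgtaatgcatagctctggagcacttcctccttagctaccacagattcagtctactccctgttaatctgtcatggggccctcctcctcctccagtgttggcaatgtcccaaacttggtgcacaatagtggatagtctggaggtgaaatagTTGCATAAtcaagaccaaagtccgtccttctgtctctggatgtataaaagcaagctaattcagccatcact
Cyp2b23: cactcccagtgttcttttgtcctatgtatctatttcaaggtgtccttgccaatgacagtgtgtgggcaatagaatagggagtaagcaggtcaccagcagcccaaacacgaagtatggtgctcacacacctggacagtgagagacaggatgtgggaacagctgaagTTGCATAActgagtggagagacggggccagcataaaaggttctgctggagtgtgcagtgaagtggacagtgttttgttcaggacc
Cyp1a1: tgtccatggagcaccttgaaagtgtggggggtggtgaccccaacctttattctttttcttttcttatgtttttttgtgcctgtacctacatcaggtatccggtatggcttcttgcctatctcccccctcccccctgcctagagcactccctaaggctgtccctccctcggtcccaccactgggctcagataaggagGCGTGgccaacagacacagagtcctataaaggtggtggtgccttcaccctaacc
Cyp2j12: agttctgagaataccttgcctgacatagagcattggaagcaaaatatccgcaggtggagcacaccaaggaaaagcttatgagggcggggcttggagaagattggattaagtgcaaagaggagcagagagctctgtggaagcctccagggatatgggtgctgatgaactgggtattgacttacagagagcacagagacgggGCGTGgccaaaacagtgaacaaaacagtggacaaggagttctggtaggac

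TTGCATAA was noticed by reading these promoters and was then searched on both strands of the whole windows, which run on past the start site. It was held by 6 of 68 promoters of members, 8.82% (Cyp2a4, Cyp2a5, Cyp2b10, Cyp2b19, Cyp2b23 and Cyp4f14), and by 0.743% of all 32851 promoters. Its last base lay at position -51 from the start site in Cyp2b10, at -64 in Cyp2a5 and at -78 in Cyp2b23. The 8.82% counts Cyp2b10, Cyp2a5 and Cyp2b23, where the letters were first seen, so it cannot be read as an enrichment. All holders but Cyp4f14 are CYP2A or CYP2B genes. The Cyp2b10 and Cyp2b23 windows shared a run of 34 identical bases. Of the 50-base windows of Cyp2a4 transcripts, 36.1% also occur in Cyp2a5. These matches are therefore not independent of each other. GCGTG was held by 20.6% of the members' promoters and 32.4% of all promoters, the E-box CACGTG by 2.94% and 7.15%, and the D-box letters TTATGTAA or TTACGTAA, to which PAR bZIP factors are known to bind, by 0 of the 68 and 1.06% of all. At a share as low as 1.06%, 0 of 68 does not show a lack of D-boxes. RefSeq windows were matched for 61 of the 80 members. The 19 without a window include Cyp7a1, Cyp39a1, Cyp17a1, Cyp4a14 and Cyp4f17, each called rhythmic in at least 1 liver group, so the motif counts leave them out. Cyp3a57, which fell further than Cyp2b23 in iDTR skins, was matched too, but its window is not printed. A match of letters is a description of the sequence and not a binding site.

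Tissue identity was checked first. Alb, made by hepatocytes, had a median of 65090 in liver, Scgb1a1 and Sftpc, of club and alveolar type 2 cells, 32160 and 18330 in lung, and Krt14, of keratinocytes, 4709 in skin. S100a8, of neutrophils, had a median of 5712 in bone marrow. In gut the epithelial gene Vil1 had a median of 681, with 649 to 680.4 in the 3 libraries titled bm and 596 to 819 in the other 33. Alpi had a median of 2.02. Of the 5 genes of the enterocyte list, 3 were listed for gut, and Lct and Sis were not. Recovered counts per library ranged between 7.68 M and 30.9 M. By limma, 0 neutrophil markers fell in any comparison, and 0 of 2 in gut, 0 of 1 in liver and 0 of 4 in lung had an unadjusted p under 0.05. In gut Ly6g had a median of 160, but Cxcr2 had 2.21 and Ltf 0.335. In liver S100a8, S100a9 and Ly6g had medians of 0.451, 0.639 and 0.525. The gut and liver tests therefore cannot show whether neutrophils were lost there. Ly6g rose by 0.16 on the log2 scale in anti-Ly6G bone marrow (limma, adjusted p = 0.0498), and the 3 tested neutrophil markers of skin rose in iDTR mice. Arntl, the gene floxed in the Bmal1-flox mice, had medians of 41.6 in iDTR, 46.85 in Bmal1-flox and 38.5 in control skins. In lung, the clock gene Dbp peaked at 0.301 h in anti-Ly6G lungs and 3.45 h in IgG lungs, against 7.84 h in anti-Ly6G livers and 8.59 h in IgG livers. Over the 774 genes rhythmic in both lung groups, the peak after anti-Ly6G minus that after IgG had a median of -2.89 h, with 96.6% earlier. Lung values are given under their labelled times and treatments. The times are in doubt for these reasons, and whether the treatment labels of lung are right was not tested. In skin, Gt(ROSA)26Sor, the locus that carries the iDTR cassette, lay between 0.242 and 1.53 in iDTR mice, between 21.0 and 30.2 in Bmal1-flox mice and between 0.225 and 1.83 in the mice labelled control, which goes against a wild-type label.

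Liver held the largest P450 share of the 5 tissues. Members made up a median of 2.17% of all signal in anti-Ly6G livers and 2.16% in IgG livers. Their share was 0.573% in anti-Ly6G lungs and 0.635% in IgG lungs, and 0.181% in anti-Ly6G gut and 0.188% in IgG gut. In skin the share was 0.0877% in iDTR mice, 0.117% in Bmal1-flox mice and 0.123% in the mice labelled control, and no iDTR library, at most 0.107%, reached the lowest control library at 0.113%. Bone marrow was lowest, with 0.0207% after anti-Ly6G and 0.0202% after IgG. The tables were normalized per tissue, so levels set across tissues are approximate.

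10 members were found in all 5 tissues, and 32 in a single one. The shared members were Cyp20a1, a P450 with no assigned substrate, Cyp27a1 and Cyp39a1 of sterol and bile acid metabolism, Cyp2d22, Cyp2j6 and the fatty acid hydroxylases Cyp4b1, Cyp4f13, Cyp4f16, Cyp4v3 and Cyp4x1. Per kb of exon, the highest mean in liver was Cyp2e1, which oxidizes ethanol and acetaminophen, with 2172, followed by Cyp2f2 with 635, Cyp2c29 with 587, Cyp2d26 with 435.5, Cyp2d9 with 428 and Cyp2d10 with 396. In lung Cyp2f2, the naphthalene-oxidizing enzyme of mouse club cells, led with 2030 per kb, ahead of Cyp4b1 with 329, Cyp2b10 with 151, Cyp2a5 with 51.1, Cyp2s1 with 46.97 and Cyp4v3 with 15.0.

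Gut was led by Cyp2c55 with 133 per kb and Cyp2d34 with 124, then Cyp2c68 with 70.8, Cyp3a13 with 47.7, Cyp2d10 with 46.3 and Cyp4f14 with 45.8. In skin the highest were Cyp2b19, an arachidonic acid epoxygenase of differentiated keratinocytes, with 66.2 per kb, Cyp2f2 with 36.3, Cyp26b1, which degrades retinoic acid, with 33.35, Cyp2b10 with 25.2, Cyp2j6 with 21.4 and Cyp4f39, which makes the omega-hydroxylated fatty acids of the epidermal barrier, with 18.7. In bone marrow Cyp4f18, a leukotriene B4 hydroxylase of mouse neutrophils, stood at 39.0 per kb, over Cyp4b1 at 7.56, Cyp27a1 at 7.43, Cyp20a1 at 6.49, Cyp1b1 at 5.25 and Cyp4f16 at 4.80. Members of 1 subfamily can share reads. For 22 of the 80, more than 20% of the 50-base windows of their transcripts also occur in another gene, with 60.3% for Cyp2c40 and 54.3% for Cyp2c69, so the split among those genes is uncertain.

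**Figure D1:**
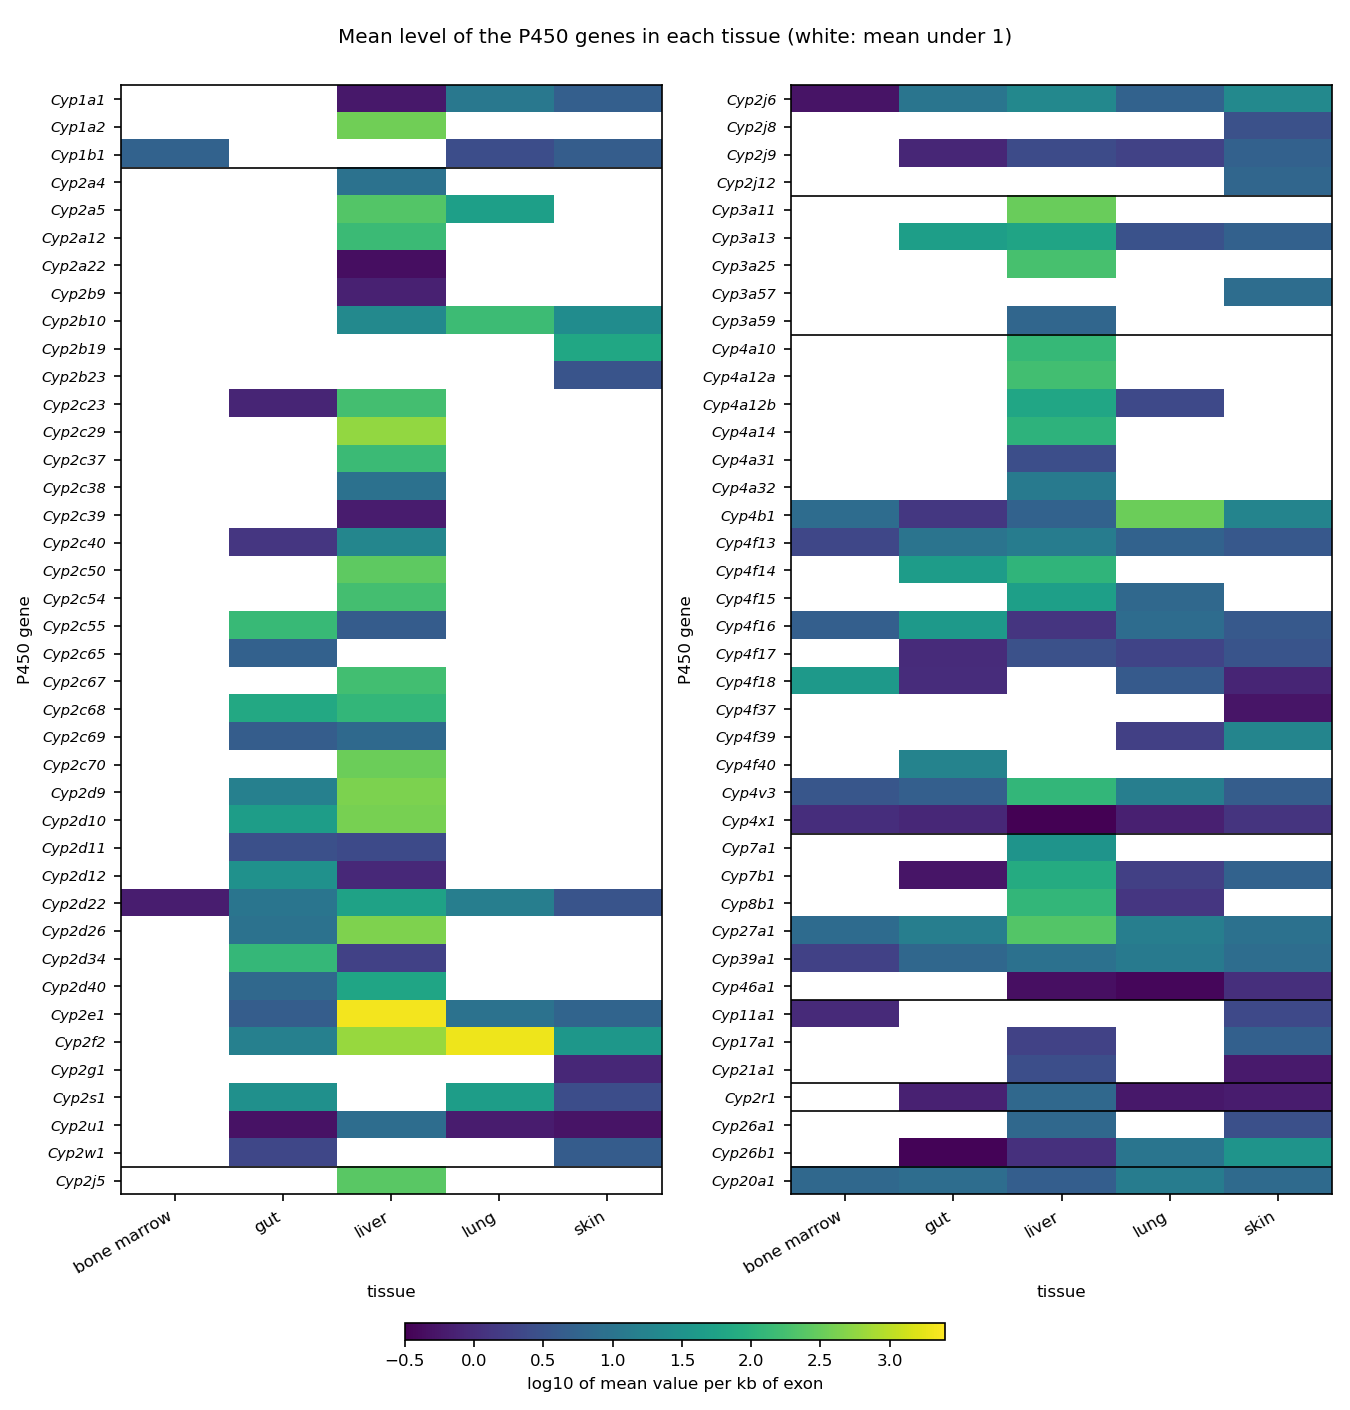
Mean level of each member in each tissue, as log10 of the mean value per kb of exon, with genes down the page grouped by role (black lines) and white where the mean was under 1. Liver fills most rows, Cyp2e1 reaches 2172 per kb in liver and Cyp2f2 2030 per kb in lung.

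In liver, 4 of 65 members differed after anti-Ly6G, 1 higher and 3 lower, beside 1.4% of all 12504 genes tested, 0.776% higher and 0.624% lower. In all, 16 members had an unadjusted p under 0.05, as did 13.6% of all genes. The test was limma on log2(value + 1) with ZT as a factor, and calls need a Benjamini-Hochberg adjusted p under 0.05 over all genes of the tissue. The members' median log2 difference was 0.011 and that of all genes 0.00081. All differences here were small and the groups overlapped in each.

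Cyp2j6, a CYP2J fatty acid epoxygenase, was lowest at 58.4, had a median of 68.9 and was highest at 86.1 in anti-Ly6G livers, against 69.6, 83.7 and 96.8 in IgG livers. It fell by 0.25 on the log2 scale (SE 0.046, adjusted p = 0.00539), was lower at 6 of 6 ZT and stayed past the threshold in all 50 alternative settings tried. Cyp4a12a and Cyp4a12b, hydroxylases that form 20-HETE from arachidonic acid and are higher in male than in female mouse liver, fell by 0.34 (SE 0.079, adjusted p = 0.0241) and by 0.37 (SE 0.085, adjusted p = 0.0190). Cyp4a12b spanned 81.2 to 192 with a median of 131 in anti-Ly6G livers and 103 to 227 with a median of 190 in IgG livers. Cyp4a12a spanned 202 to 505 with a median of 361 in anti-Ly6G livers and 256 to 628 with a median of 471.5 in IgG livers. Both were lower at 6 of 6 ZT, and the calls were lost in 5 of 50 settings for Cyp4a12a and 4 of 50 for Cyp4a12b. Since 48.9% of the 50-base windows of Cyp4a12a also occur in Cyp4a12b, these 2 calls are not independent.

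Cyp39a1, which 7α-hydroxylates 24-hydroxycholesterol on the way to bile acids, was lowest at 16.0, had a median of 28.3 and was highest at 69.8 in anti-Ly6G livers, against 14.3, 21.3 and 42.8 in IgG livers. It rose by 0.36 on the log2 scale (SE 0.096, adjusted p = 0.0478) and was higher at 6 of 6 ZT. The call was at the threshold and was lost in 36 of 50 alternative settings, where the adjusted p reached 0.581 with no time term.

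The other enzymes of bile acid synthesis did not pass the test. Cyp7a1, the rate-limiting enzyme of the classic pathway, differed by 0.16 (95% interval -0.25 to 0.57), with a median of 162.5 in anti-Ly6G livers and 117 in IgG livers. Cyp8b1, the 12α-hydroxylase that makes cholic acid, differed by -0.32 (SE 0.099, adjusted p = 0.105) and was lower at 6 of 6 ZT. Cyp7b1 differed by -0.39 (adjusted p = 0.294), Cyp27a1 by -0.04, Cyp46a1 by -0.16 and Cyp2c70, which makes muricholic acids in mouse, by -0.095. Neither AhR target was called, with 0.12 for Cyp1a1 (adjusted p = 0.681) and -0.16 for Cyp1a2 (adjusted p = 0.469).

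Of 10 redox and haem-supply partners, 1 fell in liver and none rose. It was Cyb5r3, the reductase of cytochrome b5, with a median of 423 in anti-Ly6G livers and 483 in IgG livers, a fall of 0.21 on the log2 scale (limma, adjusted p = 0.016). Of 15 tested receptors and regulators, 0 passed by limma and 2 had an unadjusted p under 0.05. Of the marker lists of other cells, the erythroid list had 1 call of 3, Alas2, the haem-synthesis enzyme of red cell precursors, with a median of 87.8 in anti-Ly6G livers and 100.3 in IgG livers (log2 -0.22, adjusted p = 0.00159), and a list median of 0.043. The 4 macrophage markers had a median difference of 0.28, with 0 called by limma and 2 at an unadjusted p under 0.05, and summed to a median of 71.9 in anti-Ly6G livers and 59.4 in IgG livers. Hepatocyte markers summed to a median of 86810 in anti-Ly6G livers and 90240 in IgG livers, and pericentral markers to 2448 in anti-Ly6G livers and 2497 in IgG livers. Periportal markers summed to 2155 after anti-Ly6G, range 1081 to 3732, and to 1582 after IgG, range 1002 to 2973, with 0 of 5 called and 2 at an unadjusted p under 0.05. The part of these cells in the results was not tested. In these bulk samples, fewer cells of a type and less RNA per cell cannot be told apart.

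A single liver library stood apart on genes known to differ between the sexes in mouse liver. The anti-Ly6G library replicate 11, from ZT 13, had 462 for Cyp2a4 and 21.7 for Cyp2b9, which are female-predominant. The next highest of the other 35 livers had 88.4 and 4.72. The medians of the other 35 were 0.883 and 0.392, under the limit of 1, so membership of these genes leans on few livers. The same library was also the lowest of 36 for the male-predominant Cyp2d9, at 547.5 against 684 or more, and Cyp7b1, at 45.3 against 57.1 or more. Cyp4a12b too was lowest there, at 81.2. Without this library Cyp4a12a at -0.35, Cyp4a12b at -0.36 and Cyp2j6 at -0.24 were still called, while Cyp39a1 at 0.35 missed the threshold (limma, adjusted p = 0.0586).

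Daily rhythms were tested as a 24 h cosine and sine wave in each treatment. In liver 15 of 65 members were rhythmic after anti-Ly6G and 24 of 65 after IgG, where the share of all genes was 34.7% after anti-Ly6G and 42.9% after IgG. Both treatments shared 12 of them, which is 80% of the anti-Ly6G list and 50% of the IgG list. Of all genes, 3211 were rhythmic in both, of 4333 after anti-Ly6G and 5368 after IgG. The test of a difference in rhythm between treatments called 0 members in liver by limma, beside 0.008% of all genes. At an unadjusted p under 0.05 there were 5 of 65, and 9.19% of all genes, so the shorter list after anti-Ly6G is not a shown loss of rhythm. The smallest unadjusted p were for Cyp2c37 (0.0137), Cyp4f13 (0.0140) and Cyp2d9 (0.0267), with adjusted p of at least 0.474.

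Cyp2b10, the classic target of the receptor CAR, had the widest wave. Its 3 anti-Ly6G livers had 7.67, 12.4 and 15.2 at ZT 1, 9.23, 13.8 and 15.4 at ZT 9, 23.45, 81.6 and 192.5 at ZT 13, and 82.55, 110 and 117 at ZT 21. Its 3 IgG livers had 13.8, 16.1 and 20.5 at ZT 1, 4.33, 5.86 and 6.17 at ZT 9, 55.8, 73.5 and 78.8 at ZT 13, and 36.5, 44.4 and 44.8 at ZT 21. Every library at ZT 17 and 21 was above every library at ZT 1, 5 and 9 in both treatments. The fitted wave was 9.402-fold from trough to peak with a peak at 17.25 h after anti-Ly6G (adjusted p = 2.61e-05) and 9.77-fold at 17.5 h after IgG (adjusted p = 1.45e-05).

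Cyp2a5, the coumarin 7-hydroxylase, rose through the day in both treatments. Its mean was 114 at ZT 1 and 758 at ZT 13 in anti-Ly6G livers, and 133 at ZT 1 and 1010 at ZT 13 in IgG livers (n = 3 each). The wave was 4.70-fold with a peak at 11.9 h after anti-Ly6G (adjusted p = 2.95e-05) and 5.955-fold with a peak at 13.0 h after IgG (adjusted p = 2.34e-06). Cyp2a5 shares 28.1% of its windows with Cyp2a4, which had a median of 0.893 over all livers.

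Bile acid enzymes were rhythmic in 3 of 6 after anti-Ly6G and 4 of 6 after IgG, Cyp2c70 not counted. Cyp7a1 had 15.6, 26.3 and 31.95 in the anti-Ly6G livers and 32.5, 50.0 and 74.4 in the IgG livers at ZT 1, and 159, 295 and 374 in the anti-Ly6G livers and 105, 141 and 261 in the IgG livers at ZT 13. Its wave was 5.62-fold with a peak at 13.7 h after anti-Ly6G (adjusted p = 0.000497) and 3.52-fold with a peak at 15.3 h after IgG (adjusted p = 0.00882). Cyp39a1 peaked at 13.75 h after anti-Ly6G and 15.1 h after IgG, with waves of 2.52-fold after anti-Ly6G and 1.96-fold after IgG. Cyp8b1 ran later, peaking at 19.7 h with a 2.12-fold wave after anti-Ly6G and at 20.9 h with a 1.95-fold wave after IgG. Cyp27a1 had a 1.10-fold wave after anti-Ly6G, not called (adjusted p = 0.252), and a 1.21-fold wave after IgG, called (adjusted p = 0.00517).

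Among the other waves called in both treatments, Cyp2c55 ranged 1.79-fold after anti-Ly6G and 2.08-fold after IgG, and Cyp4f17 1.89-fold after anti-Ly6G and 1.96-fold after IgG. Cyp3a11, the main CYP3A of mouse liver, ranged 1.71-fold after anti-Ly6G and 1.88-fold after IgG, and Cyp2e1 1.63-fold after anti-Ly6G and 1.71-fold after IgG. Cyp17a1, the steroid 17α-hydroxylase, was called after anti-Ly6G (2.84-fold, adjusted p = 0.0114) and had a 1.896-fold wave with an adjusted p of 0.142 after IgG. Cyp4a14, a PPARα target, was called after anti-Ly6G at the threshold (3.64-fold, adjusted p = 0.0497), and this was lost in 33 of 48 settings. Cyp21a1, the steroid 21-hydroxylase, had a 1.17-fold wave after anti-Ly6G (adjusted p = 0.807) and a 1.91-fold wave after IgG (adjusted p = 0.0271). Cyp2c70 had a 1.66-fold wave after anti-Ly6G (adjusted p = 0.0522) and a 1.75-fold wave after IgG (adjusted p = 0.0252). Peaks lay between ZT 12 and 24 for 10 of 15 rhythmic members after anti-Ly6G, 66.7%, and for 19 of 24 after IgG, 79.2%. Of all rhythmic liver genes, 47.4% after anti-Ly6G and 49% after IgG peaked in these hours.

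**Figure D2:**
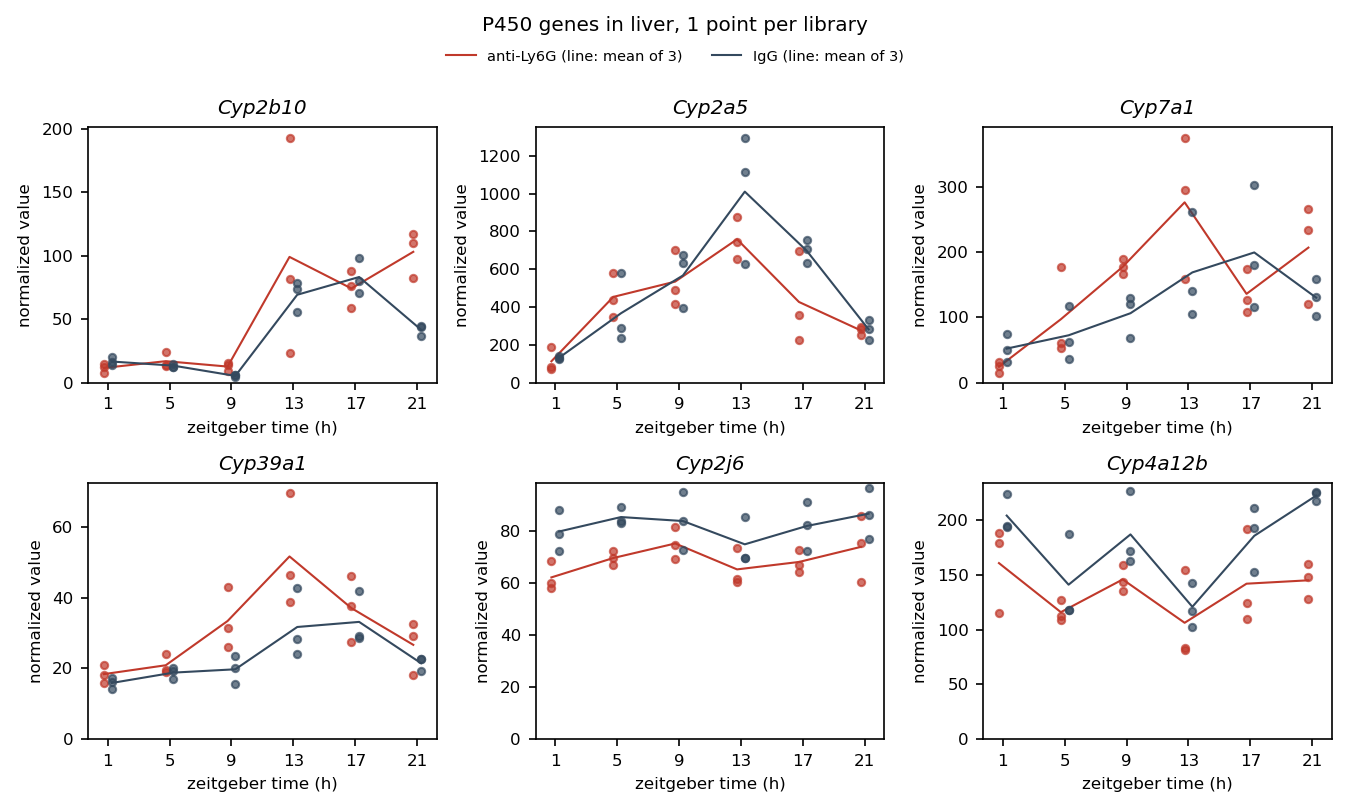
Normalized values of 6 members in liver by zeitgeber time in hours, 1 point per library, anti-Ly6G in red left of IgG in grey, with lines through the means of 3 libraries. Cyp2b10 stays at or under 23.95 in every library before ZT 13, and Cyp2j6 and Cyp4a12b are lower after anti-Ly6G with overlapping points.

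The partners of these enzymes had waves of their own in liver. Por, the reductase, swung 4.20-fold with a peak at 11.1 h after anti-Ly6G and 4.36-fold with a peak at 11.9 h after IgG. Alas1, which starts haem synthesis, swung 4.85-fold with a peak at 9.76 h after anti-Ly6G and 4.915-fold with a peak at 13.2 h after IgG. Dbp swung 51.0-fold after anti-Ly6G and 97.6-fold after IgG. Ppara swung 1.91-fold after anti-Ly6G and 2.065-fold after IgG. The receptor CAR (Nr1i3) had a 1.54-fold wave peaking at 11.5 h after anti-Ly6G (adjusted p = 0.145) and a 2.11-fold wave peaking at 13.3 h after IgG (adjusted p = 0.00437), and its difference in rhythm between treatments did not pass the test (limma, adjusted p = 0.73).

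In gut no member differed between antibodies. The count was 0 of 37 by limma, beside 0.0132% of all 15158 genes, and 1 member, Cyp2d40, had an unadjusted p under 0.05 (0.0257, adjusted p = 0.324), as did 12.7% of all genes. The members' median log2 difference was -0.010 and that of all genes -0.00043. Rhythms were frequent. They were called for 18 of 37 members after anti-Ly6G and 19 of 37 after IgG. All genes had 24.6% after anti-Ly6G and 33.6% after IgG. Both treatments shared 16 members, which is 88.9% of the anti-Ly6G list and 84.2% of the IgG list. Of all genes, 2659 were rhythmic in both, of 3725 after anti-Ly6G and 5091 after IgG. Without the 3 libraries titled bm, an alternative chosen after seeing the data, 18 members were rhythmic after anti-Ly6G and 23 after IgG, and the antibody effect called 0 by limma.

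Cyp4f14, of the leukotriene and fatty acid hydroxylases, had the widest wave in anti-Ly6G gut, with a mean of 66.7 at ZT 1 and 173 at ZT 13, while IgG gut had 86.4 and 127. The wave was 2.34-fold with a peak at 13.7 h after anti-Ly6G (adjusted p = 0.000432) and 1.67-fold with a peak at 15.2 h after IgG (adjusted p = 0.0311). Cyp2d9 had a 1.80-fold wave peaking at 8.32 h after anti-Ly6G, and after IgG the widest wave, 2.42-fold with a peak at 8.34 h. Without the IgG libraries titled bm, the log2 amplitude of this IgG wave was 0.938, against 0.638 with them. For Cyp2d9 at ZT 9 the anti-Ly6G guts had 34.9, 44.6 and 48.8 and the IgG guts 62.5, 75.9 and 96.7. At ZT 17 its anti-Ly6G guts had 28.2, 34.6 and 39.3 and its IgG guts 22.4, 27.4 and 29.04.

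The difference in rhythm was not called for Cyp2d9 or any other member of gut, 0 of 37 by limma, beside 0% of all genes, with 3 at an unadjusted p under 0.05 (Cyp2w1 0.0324, Cyp2d10 0.0334 and Cyp26b1 0.0336) beside 6.49% of all genes. The fatty acid hydroxylase Cyp2u1 had waves of 1.74-fold after anti-Ly6G and 2.22-fold after IgG, and the epoxygenase Cyp2c23 of 1.78-fold after anti-Ly6G and 1.93-fold after IgG. Cyp4v3 had waves of 1.67-fold after anti-Ly6G and 1.82-fold after IgG, and Cyp2d40 of 1.57-fold after anti-Ly6G and 1.95-fold after IgG. Cyp2w1 had a 1.71-fold wave after anti-Ly6G (adjusted p = 0.0107) and a 1.41-fold wave after IgG (adjusted p = 0.119). Cyp2d12 had a 1.26-fold wave after anti-Ly6G (adjusted p = 0.281) and a 1.61-fold wave after IgG (adjusted p = 0.00546). Of the rhythmic members, 27.8% after anti-Ly6G and 21.1% after IgG peaked between ZT 12 and 24, where all rhythmic genes of gut had 53.8% after anti-Ly6G and 51.9% after IgG. Bile acid enzymes in gut included Cyp39a1, with waves of 1.42-fold after anti-Ly6G and 1.55-fold after IgG, and Cyp27a1, with 1.56-fold after anti-Ly6G and 1.59-fold after IgG. Cyp3a13, a CYP3A enzyme, had waves of 1.57-fold after anti-Ly6G and 1.497-fold after IgG, and Por of 1.655-fold after anti-Ly6G and 1.699-fold after IgG.

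Peaks came earlier after anti-Ly6G in 13 of 16 members rhythmic in both gut groups, with a median of -1.15 h, and in 8 of 12 in liver, with a median of -1.18 h. Over all genes rhythmic in both groups, the median was -0.101 h in gut and -0.705 h in liver, with 53% and 70.6% earlier. In lung, whose labels are in doubt, 3 of 3 members peaked earlier after anti-Ly6G, with a median of -2.31 h. All lung genes rhythmic in both groups had a median of -2.89 h, with 96.6% earlier. Since no member passed the test of the difference in rhythm, these shifts are a description. The gut anti-Ly6G library replicate 1 held RNA of male accessory glands (Svs5 12480, against at most 25.4 in the other 35) and replicate 6 held the pancreatic gene Prss2 at 85.9. Without these 2 libraries, an alternative chosen after seeing the data, 17 members were rhythmic after anti-Ly6G and 19 after IgG, and the antibody effect called 0.

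**Figure D3:**
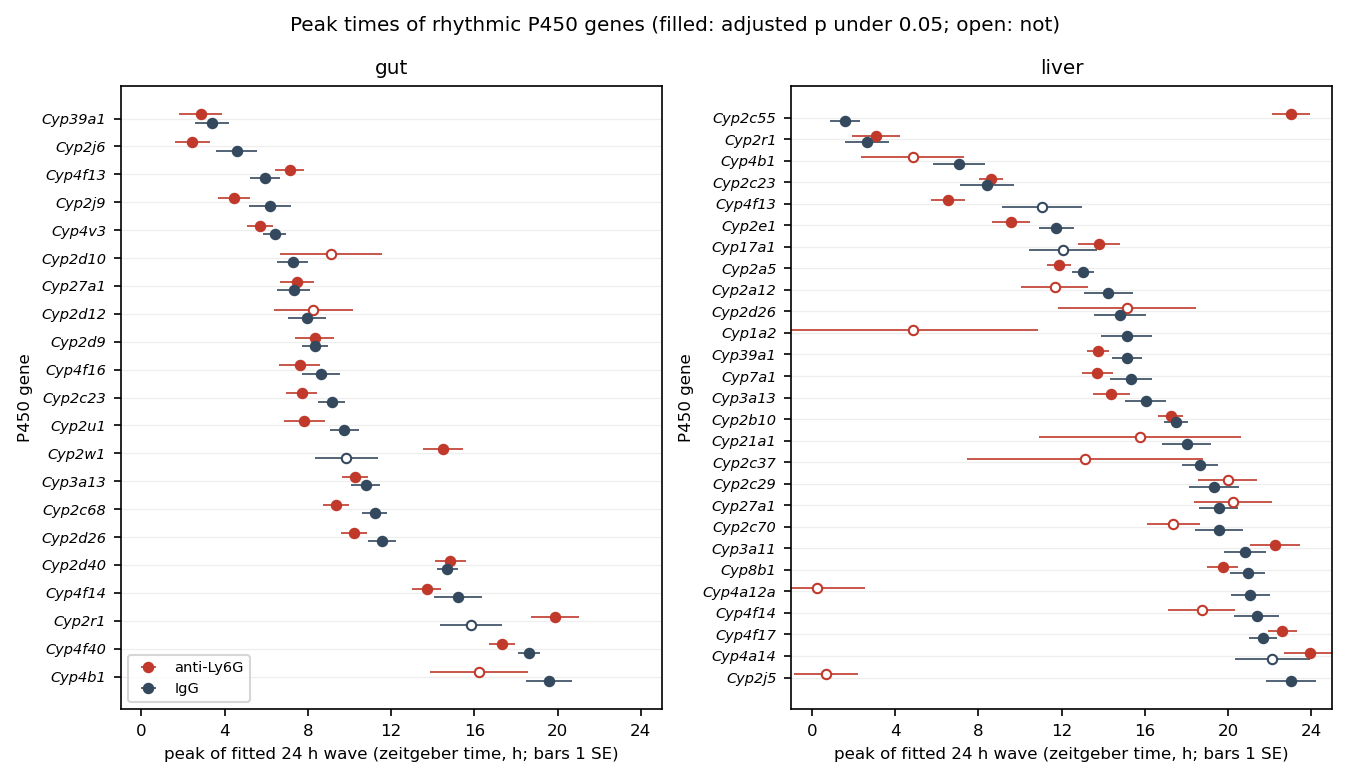
Peak time of the fitted 24 h wave in hours ZT for each member called rhythmic in either treatment, in gut and liver, anti-Ly6G in red above IgG in grey, bars of 1 SE (cut at 6 h), filled where the adjusted p was under 0.05. Gut members gather before ZT 12 and liver members after it, with 4 of 19 and 19 of 24 called IgG peaks in the dark hours.

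In bone marrow 3 of 13 members rose after anti-Ly6G and 0 fell, beside 17.1% of all 14289 genes, 9.95% higher and 7.16% lower. The members' median was 0.036 on the log2 scale and that of all genes -0.0045. Cyp4f16, a CYP4F fatty acid hydroxylase, was lowest at 12.8, had a median of 15.6 and was highest at 20.7 in anti-Ly6G marrow, against 10.5, 13.2 and 17.0 in IgG marrow, a rise of 0.20 (SE 0.051, limma, adjusted p = 0.0054) seen at 6 of 6 ZT. Cyp39a1 had medians of 6.26 in anti-Ly6G and 4.99 in IgG marrow and rose by 0.25 (SE 0.071, adjusted p = 0.0141). Cyp11a1, which cleaves the cholesterol side chain in steroid synthesis, had medians of 4.64 in anti-Ly6G and 3.675 in IgG marrow and rose by 0.24 (SE 0.071, adjusted p = 0.0175). The groups overlapped in all 3, and each of the Cyp39a1 and Cyp11a1 calls was lost in 4 of 50 settings. Cyp4f18, the marrow's leading member, had medians of 71.0 after anti-Ly6G and 72.1 after IgG and did not pass the test (0.0075, 95% interval -0.087 to 0.102). Erythroid markers fell in 3 of 4, neutrophil markers rose in 3 of 6, and Alas1 rose by 0.49 (adjusted p = 5.13e-10) beside these. The part of these cell types in the P450 results was not tested. By limma 0 of 13 members were rhythmic after either treatment, beside 0.406% of all genes after anti-Ly6G and 1.62% after IgG, and 2 in each had an unadjusted p under 0.05, beside 12.5% of all genes after anti-Ly6G and 15.9% after IgG. The difference in rhythm called 0 of 13, beside 0.007% of all genes, and 1 member, Cyp11a1, had an unadjusted p under 0.05 (0.0473), as did 3.87% of all genes.

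In lung, under the treatment labels as given, 0 of 30 members were called between antibodies by limma, as were 0% of all 15641 genes. At an unadjusted p under 0.05 there were 5 members, all lower after anti-Ly6G, and 9.35% of all genes. They were Cyp2s1 (-0.17, lower at 6 of 6 ZT), Cyp2f2 (-0.19), Cyp4f15 (-0.18), Cyp4b1 (-0.15) and Cyp39a1 (-0.13), with adjusted p between 0.355 and 0.482. Cyp2f2 spanned 2345 to 4474 with a median of 3877 in anti-Ly6G lungs and 3581 to 4953 with a median of 4414 in IgG lungs. Club cell markers, whose cells make Cyp2f2, had a median difference of -0.079, with 0 of 3 called and 0 at an unadjusted p under 0.05. The 3 tested erythroid markers had a median difference of 0.71, with 0 called by limma and 3 at an unadjusted p under 0.05, and summed to 246 to 4233 in anti-Ly6G lungs and 174 to 2651 in IgG lungs. Of the 10 redox and haem-supply partners 0 were called and 6 had an unadjusted p under 0.05, with a median of -0.060. The part of these cells in the P450 values was not tested. Rhythms under the labelled ZT were called for 7 members after anti-Ly6G and 6 after IgG, beside 12.7% of all genes after anti-Ly6G and 11.2% after IgG. Cyp2a5, Cyp2j9 and Cyp4f39 were in both, with Cyp2a5 waves of 3.227-fold after anti-Ly6G and 3.86-fold after IgG. Of all genes, 774 were rhythmic in both, of 1986 after anti-Ly6G and 1759 after IgG. By limma 0 members differed in rhythm, beside 0.0511% of all genes, with 4 at an unadjusted p under 0.05, the smallest being Cyp2f2 at 0.00704, beside 11% of all genes.

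A few lung libraries carried single members at many times the level of the rest. Cyp1a1, the AhR target that oxidizes aromatic pollutants, was 301 in 1 anti-Ly6G lung at ZT 21 and 321 in 1 IgG lung at ZT 9, and at most 40.6 elsewhere, with a median of 14.5. Cyp26b1 was 671, 348.5 and 310 in 3 anti-Ly6G lungs, at ZT 21, 13 and 9, and its highest IgG lung had 47.3. The lung with 671 for Cyp26b1 is the same anti-Ly6G library, replicate 16, that had 301 for Cyp1a1. Neither gene differed between the antibodies by the test, with adjusted p of 0.966 for Cyp1a1 and 0.663 for Cyp26b1. Cyp2e1 was highest at 73.05 in an anti-Ly6G lung. The fat-cell gene Adipoq reached 82.5 in anti-Ly6G lungs and 21.0 in IgG lungs, and its part in the Cyp2e1 values was not tested.

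Skin P450 genes were mostly lower in iDTR mice. Of 38 members 3 were higher and 25 lower than in the mice labelled control, where 63% of all 15946 genes were called, 30.6% higher and 32.4% lower. The members' median log2 difference was -0.375 and that of all genes -0.017. The groups did not overlap for 8 members, beside 8.24% of all genes. By role, 8 of 10 members of the drug and odorant group of the CYP2 family fell, as did 5 of 9 CYP4 enzymes, 4 of 4 CYP2J, 3 of 4 bile acid enzymes and 2 of 2 CYP3A, while 0 of 2 retinoic acid enzymes did. Both skin comparisons use the same 16 controls, whose genotype is in doubt as said, and all folds are on the log2(value + 1) scale, which understates the change of genes near 0.

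Cyp1a1 was lowest at 0.0204, had a median of 0.466 and was highest at 1.26 in the 16 iDTR skins, and had 9.16, 13.1 and 26.5 in Bmal1-flox skins and 14.7, 23.2 and 38.35 in control skins. It fell by 4.09 in iDTR (SE 0.14, limma, adjusted p = 6.81e-30) and by 0.73 in Bmal1-flox (SE 0.14, adjusted p = 0.000299). No iDTR skin overlapped a control skin, while Bmal1-flox and control skins overlapped. The other AhR target in skin, Cyp1b1, had medians of 27.01 in iDTR and 24.6 in control skins, with a difference of 0.079 (95% interval -0.14 to 0.30). The AhR repressor Ahrr, itself an AhR target, fell by 0.28 in iDTR (adjusted p = 0.00393) and Tiparp, another, rose by 0.27 (adjusted p = 0.000131).

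Genes of the CYP2J, CYP3A and CYP2B groups fell furthest beside it. Cyp2j12 had medians of 0.316 in iDTR, 15.2 in Bmal1-flox and 18.7 in control skins, and fell by 3.97 in iDTR (SE 0.089, adjusted p = 3.94e-37). Cyp3a57 had medians of 0.639 in iDTR and 24.95 in control skins and fell by 3.78 (SE 0.12). Cyp2b23 had medians of 0.143, 6.98 and 13.2 in iDTR, Bmal1-flox and control skins and fell by 3.62 in iDTR (SE 0.11). Cyp2j8 fell by 2.50, with iDTR skins between 0.0795 and 0.736 and control skins between 4.30 and 9.34. These 4 and Cyp1a1 were near the detection limit in iDTR skins, where the lowest value of Cyp1a1, Cyp3a57 and Cyp2b23 was 0.0204. All 4 CYP2J members fell, with Cyp2j9 at -0.53 and Cyp2j6 at -0.30.

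Most of the other called members fell by less. Cyp4f39 had medians of 29.6 in iDTR and 68.0 in control skins and fell by 1.35 (SE 0.11, adjusted p = 3.25e-15), and Cyp2b19 had medians of 192 in iDTR and 343 in control skins and fell by 0.73 (adjusted p = 2.3e-12). Cyp2f2 fell by 1.27 with no overlap (16.4 to 59.7 in iDTR, 62.5 to 102 in control skins). Cyp2e1 fell by 1.10 (SE 0.25, adjusted p = 0.000157), Cyp3a13 by 0.72, Cyp2w1 by 0.56 and Cyp4f13 by 0.50. Of the sterol enzymes, Cyp27a1 fell by 0.95, Cyp46a1 and Cyp39a1 by 0.55 each. Cyp26b1 and Cyp2b10, both among the 6 highest in skin, did not pass (log2 0.096, 95% interval -0.072 to 0.26, and 0.10, interval -0.047 to 0.25).

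The 3 members that rose were all of sterol and steroid metabolism. Cyp7b1, which 7α-hydroxylates oxysterols and 3β-hydroxysteroids, had a lowest value of 12.0, a median of 22.0 and a highest of 27.7 in iDTR skins, against 4.21, 6.75 and 7.91 in control skins, and rose by 1.52 with no overlap (SE 0.10, adjusted p = 3.01e-18). In Bmal1-flox skins its difference was 0.078 (adjusted p = 0.747). Cyp17a1 rose by 0.39 in iDTR (adjusted p = 0.000598), with medians of 17.0 in iDTR and 12.1 in control skins, and Cyp21a1 by 0.37 (adjusted p = 0.00136), with medians of 1.53 in iDTR and 1.01 in control skins. Cyp11a1, which precedes them in steroid synthesis, fell by 0.23 (limma, adjusted p = 0.0441), a call lost in 18 of 54 settings. Cyp21a1 was the member just inside the limit in skin, with a mean of 1.30. Of its 50-base windows, 21.3% also occur in the pseudogene Cyp21a2-ps.

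Por was lower in iDTR skins without overlap, at 49.3 to 88.9 against 103 to 165 in control skins, a fall of 0.83 (adjusted p = 1.33e-18). Of the 10 redox and haem-supply genes 7 fell and 1, Hmox1, rose. Ppara, the receptor that controls many CYP4 genes in liver, fell by 1.02 without overlap. Markers of other cells moved with genotype. All 5 sebocyte markers fell in iDTR, and their sum was 3.09 to 17.8 in iDTR, 196 to 402 in Bmal1-flox and 277 to 587 in control skins. All 4 adipocyte markers fell in iDTR, with sums of 29.7 to 140 in iDTR, 120 to 199.9 in Bmal1-flox and 129 to 195 in control skins. Of 5 keratinocyte markers 3 rose and 1 fell in iDTR, and the neutrophil sum was 23.65 to 116 in iDTR, 12.8 to 45.7 in Bmal1-flox and 14.4 to 36.8 in control skins. The sebocyte receptor Mc5r lay between 0.0265 and 0.6605 in iDTR and between 4.496 and 9.28 in control skins. The part of these cells in the P450 results was not tested.

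**Figure D4:**
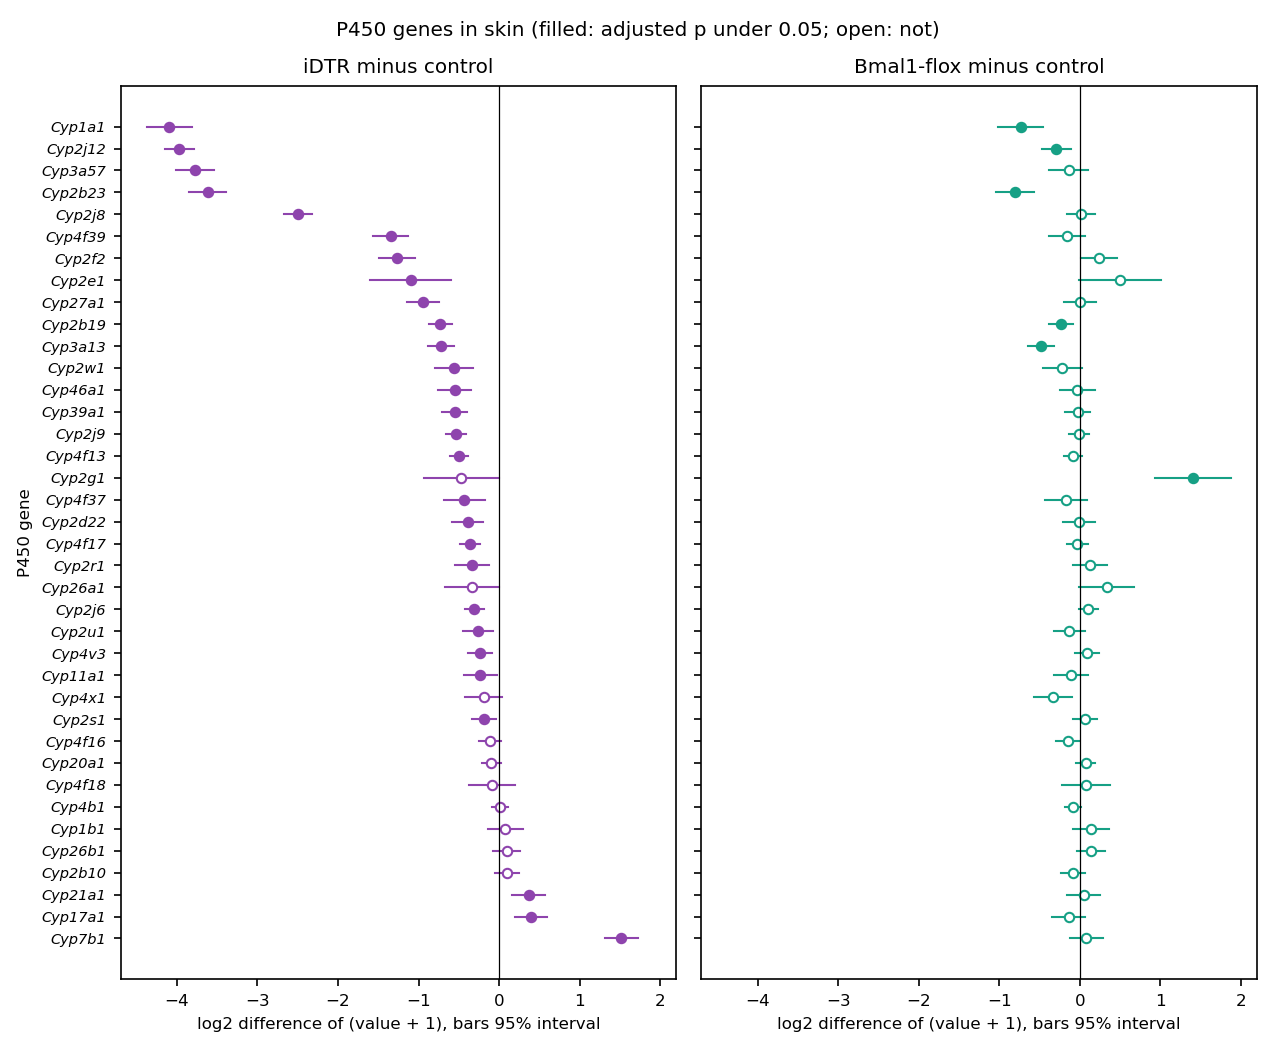
Log2 difference of (value + 1) for the 38 members tested in skin, iDTR minus control on the left and Bmal1-flox minus control on the right, with 95% intervals and filled points where the adjusted p was under 0.05. In iDTR 25 members are lower and 3 higher, with Cyp1a1 at -4.09 and Cyp7b1 at 1.52, and in Bmal1-flox 5 are lower and 1, Cyp2g1, is higher.

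In Bmal1-flox skins 6 of 38 members were called, 1 higher and 5 lower, beside 5.63% of all genes, 2.41% higher and 3.21% lower. The members' median log2 difference was -0.029 and that of all genes 0.00053. Cyp2g1, a P450 of the olfactory mucosa, was lowest at 0.518, had a median of 3.27 and was highest at 15.0 in Bmal1-flox skins, against 0.0482, 0.568 and 3.95 in control skins. It rose by 1.41 (SE 0.235, limma, adjusted p = 3.39e-05), was higher at 14 of 15 shared times, and the groups overlapped. In iDTR skins its median was 0.195 and its difference -0.47 (adjusted p = 0.0733). Its median was over the limit of 1 only in Bmal1-flox skins, so its membership leans on the group where it was high.

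The 5 lower members in Bmal1-flox were Cyp2b23, Cyp1a1, Cyp3a13, Cyp2j12 and Cyp2b19. Cyp2b23 fell by 0.81 (SE 0.12, adjusted p = 1.84e-06), with a lowest value of 3.95, a median of 6.98 and a highest of 14.9 in Bmal1-flox skins against 7.53, 13.2 and 20.6 in control skins. Cyp3a13 fell by 0.49 (adjusted p = 3.63e-05) and was lower at 15 of 15 shared times. Cyp2j12 fell by 0.29 (adjusted p = 0.0436) and Cyp2b19 by 0.23 (adjusted p = 0.0463), calls that were lost in 20 and 19 of 54 settings. Of 5 sebocyte markers 0 were called in Bmal1-flox by limma, their median difference was -0.43, and 4 had an unadjusted p under 0.05. Of 3 tested erythroid markers 1, Hba-a1, was higher (log2 1.45, adjusted p = 0.0251), and all 3 had an unadjusted p under 0.05. Of 3 endothelial markers 1, Pecam1, was lower (log2 -0.21, adjusted p = 0.0476), and all 3 had an unadjusted p under 0.05. The part of these cells in the P450 results was not tested. Por fell by 0.20 (adjusted p = 0.0174) and Hmox1 rose by 0.35 (adjusted p = 0.00329).

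A single Bmal1-flox library, replicate 1 from ZT 4, held hepatocyte genes, with Alb at 1182 against at most 6.30 in the other 46 skins and Ttr at 81.1 against at most 1.29. It was also the highest of the skins for Cyp2e1, at 63.85 against at most 36.3. Without it 4 members were called in Bmal1-flox. Cyp2g1 at 1.40, Cyp2b23 at -0.82, Cyp1a1 at -0.72 and Cyp3a13 at -0.50 were still called, while Cyp2j12 at -0.28 (limma, adjusted p = 0.072) and Cyp2b19 at -0.23 (adjusted p = 0.0658) missed the threshold.

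**Figure D5:**
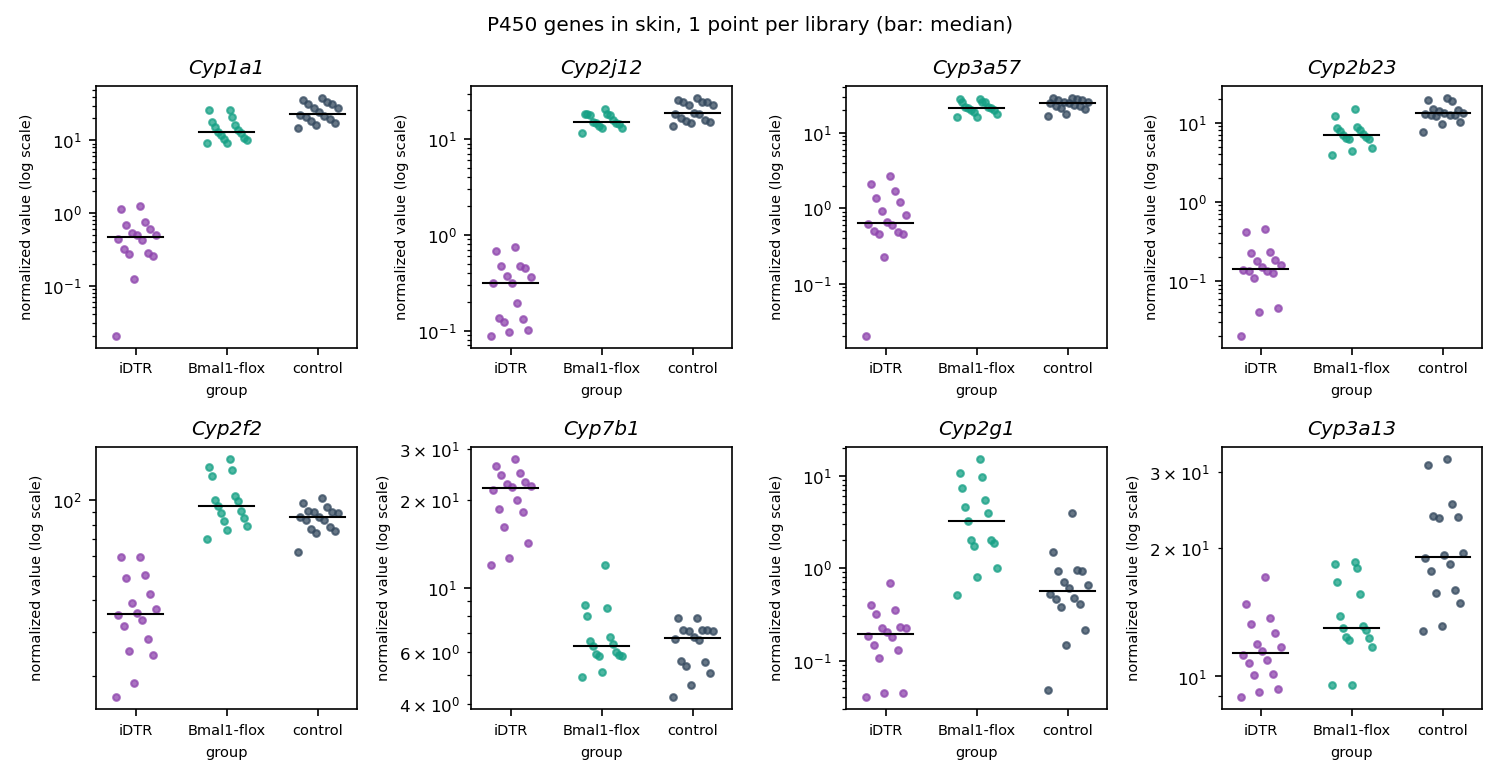
Normalized values of 8 members in skin on a log axis, 1 point per library and a bar at the median, with iDTR left, then Bmal1-flox, then control. The iDTR skins lie apart from the control skins for Cyp1a1, Cyp2j12, Cyp3a57, Cyp2b23, Cyp2f2 and Cyp7b1, and the Cyp2g1 median is 3.27 in Bmal1-flox and 0.568 in control skins.

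Rhythms were few in Bmal1-flox and control skins, for P450 genes as for all genes. By limma 5 of 38 members were rhythmic in iDTR, 0 in Bmal1-flox and 1 in control skins, beside 10.9% of all genes in iDTR, 0.326% in Bmal1-flox and 0.383% in control skins. At an unadjusted p under 0.05 there were 14 members in iDTR, 2 in Bmal1-flox and 4 in control skins. The shares of all genes were 26.6% in iDTR, 8.51% in Bmal1-flox and 9.73% in control skins. The called control member was Cyp3a13, with a 1.86-fold wave that peaked at 12.8 h (adjusted p = 0.00191). It was 12.8 at ZT 21, 13.1 at ZT 1 and 32.1 at ZT 13 in control skins. Its waves were 1.38-fold in iDTR and 1.33-fold in Bmal1-flox, not called, and the difference in rhythm from control was not called either (adjusted p = 0.232 in iDTR and 0.999 in Bmal1-flox). In iDTR, Cyp2f2 (1.92-fold), Cyp1b1 (1.73-fold), Cyp21a1 (1.655-fold), Cyp26b1 (1.56-fold) and Cyp4f13 (1.32-fold) were called, with peaks between 9.06 h and 14.4 h. The difference in rhythm called 0 members in either genotype by limma, beside 0.144% of all genes in iDTR and 0% in Bmal1-flox, with 8 in iDTR and 0 in Bmal1-flox at an unadjusted p under 0.05, the smallest being Cyp4f18 in iDTR at 0.00743. Of all genes, 15.2% in iDTR and 3.53% in Bmal1-flox had an unadjusted p under 0.05 in that test.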

How the data were processed

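Members and gene lists were chosen with earlier results of these data known. Groups came from the labels alone. Libraries were made with NEBNext Ultra and sequenced from 1 end on a HiSeq2500, per the labels' protocols. CASAVA 1.8, cutadapt 1.7.1, RSEM, limma 3.46 and the build mm10 are named in the submitters' processing notes. Whether counting used strand is not given in the sources used here. The deposited tables, 1 per tissue, hold a normalized signal on a linear scale, which the authors made in a way not given in the sources used here. In each column the values behave like estimated counts plus 0.5, scaled to a library size, and between 29.75% and 44.5% of recovered counts were whole, so count tests were not used.

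Here, log2(value + 1) was fitted in R 4.3.3 with limma 3.58.1, for genes with a mean of at least 1, with a mean-variance trend, two-sided tests and Benjamini-Hochberg adjustment over all tested genes of a tissue at 0.05. The antibody effect had ZT as a factor, the genotype effect a 24 h wave. Rhythms were F tests of a 24 h cosine and sine per group. The fits were tested on simulated data. P-values measure the spread between libraries. Named genes were those called in a comparison (up to 12 a direction), the 6 highest per kb in a tissue, the 8 largest waves in a group, AhR targets, bile acid enzymes, the 3 smallest p of the difference in rhythm where none passed, and partner genes. Symbols and exon lengths came from GENCODE M21. Alternatives were the pseudocount, the filter, quantile normalization, voom weights, the time terms, a replicate block and leaving out each time or library.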

Additional observations from a re-analysis of the deposited data

How the results depend on the processing

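Of the alternative values for counts of called members, 1142 stayed within 1.5 times the reported count and 16 did not. Of those for named genes, 5972 kept their side of the threshold, 314 lost it, 5 moved and 0 reversed. Most settings in each tissue left out only 1 library, a small change to the data, so these totals lean towards agreement. The exceptions were few. The bone marrow antibody count of 3 was 1 without ZT 1, ZT 13 or ZT 17. The liver antibody count of 4 was 1 with no time term, with a 24 h wave or without ZT 21, 2 without ZT 9, and between 3 and 6 when single libraries were left out. Lung rhythms after anti-Ly6G, 7 as reported, were 3 without ZT 1 or ZT 21, 4 without ZT 9 and 5 to 14 without single libraries, the 14 without anti-Ly6G replicate 6. Lung rhythms after IgG, 6 as reported, were 3 without ZT 9. Skin iDTR rhythms, 5 as reported, were 3 to 10 without single libraries, with 8 without iDTR replicate 1, 3 without replicate 10 or 11 and 10 without replicate 15. The cause was not tested. The skin counts of 28 in iDTR and 6 in Bmal1-flox ranged over 27 to 29 and 4 to 6 without single libraries. With a replicate block the counts were 30 in iDTR, 5 in Bmal1-flox and 0 in gut. Deviations of same-numbered libraries had a median correlation of 0.031 over 18 gut pairs, range -0.221 to 0.184, with 6 pairs over 0.1. Over 31 skin pairs the median was 0.047, range -0.176 to 0.296, with 8 pairs over 0.1. These values show no clear pairing by replicate number but cannot settle whether libraries were paired. The number in skin is only the time. Depth limits the lowest members, such as those of iDTR skin under 1, whose log2 differences move with the pseudocount (Cyp1a1 -5.54 at 0.1 and -2.41 at 5, Cyp2b23 -5.74 at 0.1 and -1.83 at 5).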
